A study of Homo sapiens with 9 samples.

Results

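Antisense RNAs named after a gene on the opposite strand were followed in TC32 cells together with the gene each is named for, here called the sense partner. The set was taken from the gene names of the deposited tables: a name made of a gene symbol and the suffix -AS with a single digit, and an expected count averaging at least 40 over the 9 libraries. Of 58278 rows, 1235 carried such a name, 343 of these were at 0 in every library, and 196 rows with 195 different names reached the threshold. The members were chosen by their mean count over all libraries, so the levels of these RNAs are given as a description and not as a finding. Just inside the threshold were HOXB-AS1, LIPE-AS1 and DICER1-AS1, with mean expected counts of 40.4, 40.8 and 41.4, and just outside it were PDCD4-AS1, ST7-AS1 and AP4B1-AS1 with 39.8, 39.7 and 39.0.

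TC32 is an established Ewing sarcoma cell line, so every value comes from 1 line. RNA sequencing of polyadenylated RNA compared 3 groups of 3 libraries, and no other treatment or genetic change is given in the labels. The vehicle group received PBS and later DMSO, the Wnt3a group received Wnt3a, a secreted ligand of the Wnt pathway, for 28 h, and the inhibitor group received Wnt3a for 28 h with SB-505124 during the last 24 h. SB-505124 blocks the kinases of the TGF-β, activin and nodal type I receptors. No group received SB-505124 without Wnt3a, so an effect of the inhibitor alone cannot be told apart from one that needs Wnt3a. Whether the 3 libraries of a group were grown as separate cultures is not given in the labels. The p-values therefore reflect the scatter of these libraries, and this scatter may be technical. Since each library is a bulk extract, fewer cells of a kind and less RNA per cell cannot be told apart.

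Natural antisense RNAs are long noncoding transcripts made from the strand opposite a gene. Many start beside the promoter of that gene and run away from it, so that both RNAs leave a shared CpG-rich promoter in opposite directions, while others begin inside the gene or beyond its end and cover part of its exons. Well-studied examples act in the nucleus on the neighbouring gene, others bind microRNAs or proteins or carry small nucleolar RNAs in their introns, and many are short-lived because the nuclear RNA exosome degrades them.

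Shared promoters are given for 4 pairs whose RNAs start back to back, because the pairs behaved differently with the inhibitor although the starts lie at most 189 bases apart. Each sequence is RefSeq's window of the 250 bases before the start of the sense gene on GRCh38.p14, read 5′ to 3′ on the strand of the sense gene. The capitals mark the 50 bases whose complement is the beginning of the antisense RNA, which starts at the right end of the capitals and runs to the left. The pair shown for each kind of response is the one with the largest change of its antisense RNA among the pairs open to this choice. These had a RefSeq window for both genes, and their antisense RNA begins inside the window of the sense gene. Pairs without both windows, among them those of EXOC3 and RNF139, were not considered. MAFG, which encodes a small MAF transcription factor, lies on the minus strand at chr17:81927736-81927985, and here the antisense RNA fell while the sense gene was higher.
MAFG: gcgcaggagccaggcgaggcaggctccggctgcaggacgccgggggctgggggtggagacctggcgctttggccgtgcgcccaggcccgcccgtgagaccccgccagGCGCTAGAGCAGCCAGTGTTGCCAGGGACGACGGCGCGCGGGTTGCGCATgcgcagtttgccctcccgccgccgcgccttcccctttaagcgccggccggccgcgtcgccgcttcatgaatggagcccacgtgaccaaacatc
OSER1, an oxidative stress responsive gene, lies on the minus strand at chr20:44210772-44211021, and both RNAs rose.
OSER1: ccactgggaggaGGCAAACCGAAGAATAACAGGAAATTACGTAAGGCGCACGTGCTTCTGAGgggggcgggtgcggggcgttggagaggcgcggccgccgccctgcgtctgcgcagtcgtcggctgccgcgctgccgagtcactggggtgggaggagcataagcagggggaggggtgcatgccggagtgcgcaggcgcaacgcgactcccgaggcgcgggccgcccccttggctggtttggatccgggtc
NUP50, a nuclear pore protein gene, lies on the plus strand at chr22:45163675-45163924, and both RNAs fell.
NUP50: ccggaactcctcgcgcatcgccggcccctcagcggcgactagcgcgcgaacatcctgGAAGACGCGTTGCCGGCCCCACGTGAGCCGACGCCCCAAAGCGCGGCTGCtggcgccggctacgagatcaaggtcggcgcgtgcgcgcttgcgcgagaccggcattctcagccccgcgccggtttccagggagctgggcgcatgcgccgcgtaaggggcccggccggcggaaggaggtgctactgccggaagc
USP46, a deubiquitinating enzyme gene, lies on the minus strand at chr4:52659302-52659551, and here the antisense RNA fell while the sense gene did not pass the test.
USP46: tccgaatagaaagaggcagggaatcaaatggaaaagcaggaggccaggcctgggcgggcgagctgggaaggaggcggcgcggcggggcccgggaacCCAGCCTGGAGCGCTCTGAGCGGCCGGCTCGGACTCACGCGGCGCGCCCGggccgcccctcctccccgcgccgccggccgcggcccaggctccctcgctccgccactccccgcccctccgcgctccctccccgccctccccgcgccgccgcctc
The annotated starts of the 2 RNAs are 94 bases apart at MAFG, 189 at OSER1, 144 at NUP50 and 105 at USP46, and the 4 windows hold 31, 28, 40 and 34 CpG dinucleotides.

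All 196 antisense rows passed the filter on low counts and entered the test, as did 17880 genes in all. Of the antisense RNAs, 131 had a mean of at least 40 in each of the 3 groups, 61 were below 40 only with the inhibitor, and 1 reached 40 only with the inhibitor. A sense partner row existed for 190 of them. The 190 pairs held 186 different partners, since PTOV1, ZNFX1, TSPEAR and PAXIP1 each had more than 1 antisense row, and 178 partners were tested, which left 182 pairs with both genes tested. The remaining 6 rows were HOXB-AS1, HOXC-AS2, HOXC-AS3, HOXD-AS2, JHDM1D-AS1 and RPARP-AS1. Every ID was found in GENCODE release 29 on hg38, whose coordinates are given throughout and where 130 were of the type antisense, 29 processed transcripts, 25 long intergenic RNAs and 4 protein-coding, and 39 now carry another symbol, 27 of them one ending in -DT for divergent transcript. All 190 pairs lay on opposite strands of 1 chromosome. The 2 starts were within 1 kb in 76 pairs, the spans overlapped in part in 67, the antisense span lay inside the sense span in 24, the sense span lay inside the antisense span in 20, and 3 pairs were apart.

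The libraries held 28827149 to 42948945 counts in the genes tested. The inhibitor libraries detected 23196 to 23250 genes and the other 6 libraries 25128 to 26802, and TMM scaling factors were 0.876 to 0.914 against 1.02 to 1.10. Inhibitor replicate 1 and vehicle replicate 2 stood apart from the other libraries of their groups. For inhibitor replicate 1 the chi-square divided by the degrees of freedom was 65.7 and 68.3 against the other inhibitor libraries and 10.3 between those, and for vehicle replicate 2 it was 41.4 and 37.8 against 7.37, so main counts are also given without each. For Wnt3a replicate 3 it was 36.8 and 40.5 against the other Wnt3a libraries and 21.4 between those. Leaving out Wnt3a replicate 3 is covered by the ranges over all libraries given at the end. The 10 Ewing sarcoma markers, among them CD99, NKX2-2 and NR0B1, summed to 3894 to 4748 CPM (TMM-scaled counts per 1e6 counts) with vehicle, 3401 to 4435 with Wnt3a and 2524 to 3135 with the inhibitor, and none was under 1 CPM throughout. Summed endothelial and epithelial markers stayed between 0.618 and 2.85 CPM, leukocyte markers were at 2.25 to 3.69 CPM with vehicle, 2.34 to 2.58 with Wnt3a and 5.26 to 8.73 with the inhibitor, with CD68 at up to 8.22 CPM in a library and CD3E at 0 in all libraries, and fibroblast markers were at 216 to 289 CPM with vehicle, 348 to 539 with Wnt3a and 223 to 301 with the inhibitor. The part of these differences in the results below was not tested.

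No antisense RNA was called with Wnt3a alone. Of 196, none passed the edgeR quasi-likelihood test at an adjusted p of 0.05 (0.419% of all 17880 genes did, 0.397% higher and 0.0224% lower), and 5 (2.55%) had an unadjusted p under 0.05 against 7.62% of all genes. DESeq2 and every other alternative also called 0 antisense RNAs. Their median log2 fold change was 0.02 and that of all genes 0.01. The 3 Wnt3a libraries lay wholly below the 3 vehicle libraries for 17 antisense RNAs (8.19% of all genes did) and wholly above for 15 (9.35% of all genes did).

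Among the sense partners 1 of 178 rose with Wnt3a. Rises, falls and differences are on the log2 scale from here on. UNC5B-AS1, which lies inside the gene of the netrin receptor UNC5B, had the lowest Wnt3a difference of the 196, with 3.51, 3.3 and 3.58 CPM with vehicle and 1.85, 1.76 and 2.5 CPM with Wnt3a (log2 -0.76, edgeR adjusted p = 0.613). With the inhibitor UNC5B-AS1 stood at 2.43, 5.54 and 5.85 CPM, overlapping the Wnt3a libraries. It passed as higher than with Wnt3a alone (log2 1.18, edgeR adjusted p = 0.0117), though not with limma-trend on TPM (adjusted p = 0.0951). Without inhibitor replicate 1, whose spread enters the fit, 4 sense partners were called for Wnt3a and still no antisense RNA, and without vehicle replicate 2 there were 1 and 0. UNC5B-AS1 was chosen after its values were seen.

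**Figure D1:**
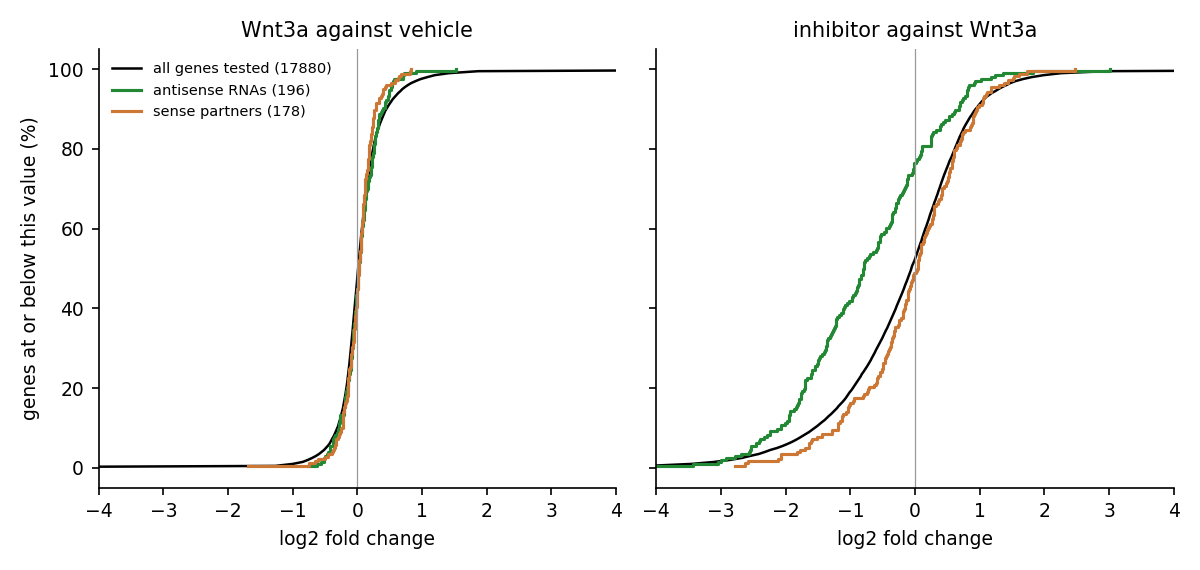
Cumulative distribution of the log2 fold change (x axis) over 196 antisense RNAs, 178 sense partners and 17880 genes tested, with the percentage of genes at or below each value on the y axis, for Wnt3a against vehicle and inhibitor against Wnt3a. With Wnt3a the 3 curves cross near 0, and with the inhibitor the antisense curve lies to the left, with a median of -0.80 against 0.04 for the partners and -0.06 for all genes.

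With the inhibitor 113 antisense RNAs passed the test (50.4% of all genes did), and most of them were lower. Against Wnt3a alone, 94 of 196 fell (25.9% of all genes did) and 19 rose (24.5% of all genes did), and the median log2 fold change was -0.80 against -0.06 for all genes. Their sense partners were divided more evenly, with 55 of 178 higher and 48 lower and a median of 0.04, which became -0.21 when libraries were scaled by their totals. That scaling moved the median of all genes from -0.06 to -0.31, and the antisense median to -1.05. The antisense median minus that of all genes was -0.74 both in the main fit and with library totals. It was -0.61 with an offset for effective length and -0.42 with limma-trend on log2(TPM + 1). The share of calls that were higher was 16.8% for antisense RNAs, 53.4% for sense partners and 48.6% for all genes, and with library totals it was 8.06%, 35.6% and 30.6%. A fall that passed the test and was at least 2-fold was seen in 77 antisense RNAs and 24 partners (15% of all genes had one), and such a rise in 5 and 16 (7.32% of all genes had one). Of the 196 antisense RNAs, 61 had a mean expected count under 40 only with the inhibitor, and 1 reached 40 only with it. The 61 thus entered the set through the groups where they were higher. Falls are not given separately for the 131 with at least 40 in each group.

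Library values showed the same shift. The inhibitor libraries lay wholly below the Wnt3a libraries for 105 antisense RNAs (30.3% of all genes did) and wholly above for 24 (27.8% of all genes did). The median antisense RNA was at 3.16, 3.49 and 3.12 CPM in the vehicle libraries, 3.23, 3.84 and 2.96 CPM with Wnt3a, and then 2.28, 1.84 and 1.97 CPM with the inhibitor, so that all 3 inhibitor libraries were lower than the other 6. Together the 196 rows held 0.240 to 0.264% of a vehicle library's counts, 0.231 to 0.270% of a Wnt3a library's and 0.167 to 0.229% of an inhibitor library's. Without the most abundant, LRRC75A-AS1, the ranges were 0.181 to 0.190%, 0.179 to 0.211% and 0.0990 to 0.125%. Without inhibitor replicate 1 the calls were 105 lower and 16 higher, with a median of -0.90, and without vehicle replicate 2, whose spread enters the fit, they were 95 and 19. Without Wnt3a replicate 3 the antisense median was -0.82.

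Against vehicle, which shares the inhibitor libraries with the comparison above, 103 antisense RNAs passed (49.7% of all genes did), of which 89 were lower (24.8% of all genes were) and 14 higher (25% of all genes were), with a median of -0.72. The partners numbered 49 lower and 56 higher, with a median of -0.03. Without inhibitor replicate 1 there were 97 lower and 14 higher antisense RNAs, and without vehicle replicate 2 there were 83 and 14.

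Most noncoding classes also had more falls than rises. Among the 187 antisense-named rows that were tested but lay under the count threshold, 61 were lower and 2 higher with the inhibitor against Wnt3a, with a median of -0.94. The 1124 tested genes of GENCODE type antisense had 406 lower and 58 higher (median -0.90), the 745 long intergenic RNAs 313 and 46 (median -1.10), and the 108 sense intronic RNAs 48 and 3 (median -1.40). The antisense and long intergenic classes include 130 and 25 of the 196 members, so they are not separate from the set. Processed pseudogenes went the other way, with 71 lower and 102 higher of 770 (median 0.33). Protein-coding genes had 3423 lower and 4077 higher of 13948 (median 0.03). At the level of the middle of the antisense set, mean expected counts of 71.6 to 264, 471 of 1582 protein-coding genes were lower (29.8%) and 222 higher (14%) with a median of -0.26, while 51 of 98 antisense RNAs were lower (52.0%) and 9 higher (9.18%) with a median of -0.86.

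The antisense median was lowest in pairs with starts within 1 kb. That class was set by distance alone and can also hold pairs whose 5′ ends overlap. For comparison, 25.9% of all genes fell and 24.5% rose. Where the starts were within 1 kb, 44 of 76 antisense RNAs fell and 6 rose, with a median of -1.25, and of their partners 22 fell and 28 rose, with a median of 0.07. Where the spans overlapped in part, 31 of 67 antisense RNAs fell and 7 rose (median -0.80), with 17 of 64 tested partners lower and 17 higher (median -0.01). Antisense RNAs inside the sense span had 10 of 24 lower and 5 higher (median -0.39), and their 22 tested partners 3 and 8 (median 0.29). Where the sense gene lay inside the antisense span, 5 of 20 antisense RNAs were lower and 1 higher (median -0.19), while the partners were 6 lower and 2 higher of 16 tested (median -0.79). Here the share of antisense RNAs that fell, and in the pairs overlapping in part the share of partners called in either direction, was near that of all genes. The 27 RNAs now named as divergent transcripts had 14 lower and 2 higher (median -1.17).

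**Figure D2:**
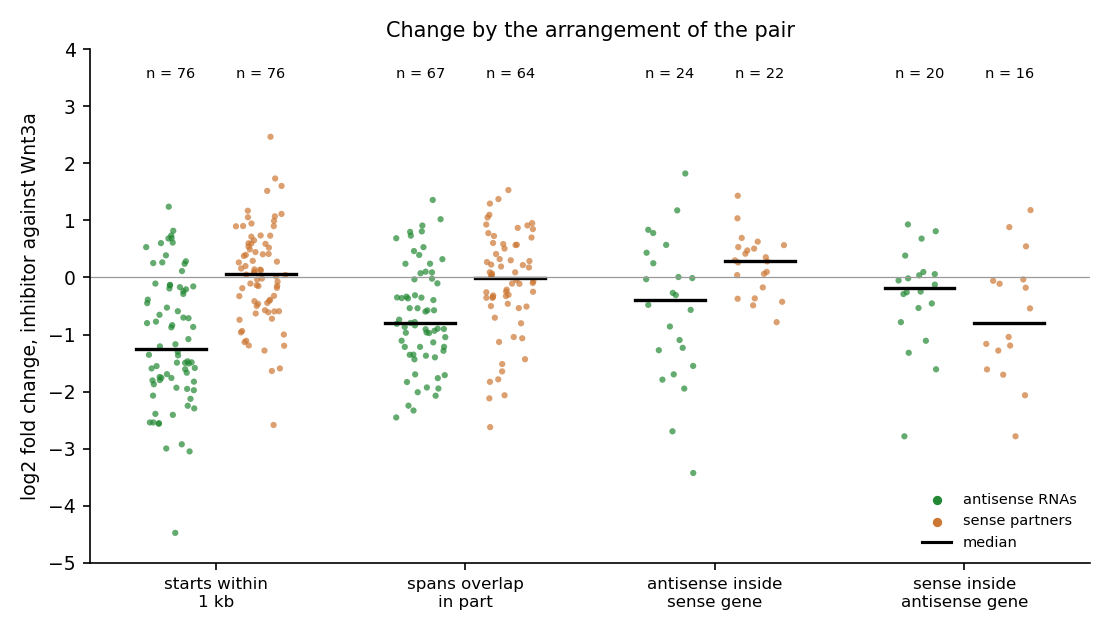
Log2 fold change of inhibitor against Wnt3a (y axis) for antisense RNAs and tested sense partners by the arrangement of the 2 genes on the genome (x axis), with 1 point per gene and a black bar for the median. The antisense median runs from -1.25 where the starts lie within 1 kb to -0.19 where the sense gene lies inside the antisense span, and the partners' median from -0.79 to 0.29.

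The largest fall was that of RHPN1-AS1 (ENSG00000254389.3), which was at 1.63, 1.33 and 1.64 CPM with vehicle, 1.55, 1.47 and 1.55 CPM with Wnt3a alone and 0, 0.122 and 0.0639 CPM with the inhibitor. The inhibitor libraries held 0, 4 and 2 counts of it, and the other 6 held 55 to 68. It fell by 4.48 on the log2 scale (SE 0.553, edgeR adjusted p = 0.000127), while RHPN1 differed by -1.0 and did not pass (edgeR adjusted p = 0.0588). With a mean expected count of 42.0, RHPN1-AS1 entered the set through the vehicle and Wnt3a groups, where it was higher. The same holds for MBNL1-AS1, EXOC3-AS1 and SGMS1-AS1 below, with means of 42.2, 54.2 and 72.3. The size of such falls is given as a description. TMPO-AS1 (ENSG00000257167.2, chr12:98512973-98516422) starts within 1 kb of the start of the gene of the lamina-associated polypeptide TMPO. It was at 25.5, 26.1 and 23 CPM with vehicle, 23.8, 23 and 22.7 CPM with Wnt3a alone and 2.15, 2.45 and 4.04 CPM with the inhibitor. All inhibitor libraries were far below the other 6, and the fall was 3.0 on the log2 scale (SE 0.207, edgeR adjusted p = 5.45e-06). TMPO itself went from 464 ± 11.5 to 215 ± 28.4 CPM and fell by 1.11 on the log2 scale (edgeR adjusted p = 3.27e-05).

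In other large falls the partner did not pass the test or the filter on low counts. USP46-AS1, whose start is printed above, was at 1.52, 1.87 and 1.43 CPM with vehicle, 1.88, 1.52 and 2.07 CPM with Wnt3a alone and 0.304, 0.213 and 0.415 CPM with the inhibitor. It fell by 2.54 on the log2 scale (edgeR adjusted p = 0.000192), with USP46 at a log2 difference of -0.11 (edgeR adjusted p = 0.47). STARD4-AS1, named for a cholesterol carrier, fell by 2.56 on the log2 scale (edgeR adjusted p = 0.00104), with STARD4 at a log2 difference of -0.15 (edgeR adjusted p = 0.598). FGF14-AS2, named for an intracellular fibroblast growth factor homologue, fell by 2.7 on the log2 scale (edgeR adjusted p = 0.000156), with FGF14 at a log2 difference of 0.3 (edgeR adjusted p = 0.594). SNAI3-AS1 fell by 2.78 on the log2 scale (edgeR adjusted p = 9.05e-05), and SNAI3, of the Snail family of transcription factors, did not pass the filter on low counts. In each of these 4 the inhibitor libraries lay below all Wnt3a libraries. USP46-AS1 was chosen after its values were seen.

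Both genes of a pair could be tested in 182 pairs. With the inhibitor against Wnt3a both RNAs rose in 9 pairs (4.95%), both fell in 27 (14.8%), and they changed in opposite directions in 30 (16.5%). The same counts over 3912 opposite-strand overlapping gene pairs of the annotation with both genes tested were 6.08%, 9% and 10.8%. The 2 sets are unlike, since those pairs are of any gene type and their spans overlap. Of the 190 pairs here, 76 were classed by the distance of their starts and need not overlap. The antisense RNAs also fell more often than all genes, so the difference in shares is not a result about pairing. In 37 pairs the antisense RNA fell and the partner did not pass. Across the 182 pairs the 2 log2 fold changes had a Pearson r of 0.03 and a Spearman rho of 0.02, given as a description, since the pairs share the same 6 libraries and some share a partner. The antisense value was below the sense value in 126 pairs. Without inhibitor replicate 1 the counts were 7 both higher, 29 both lower and 39 opposite. With library totals they were 2, 44 and 27. Against vehicle they were 6, 24 and 28.

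**Figure D3:**
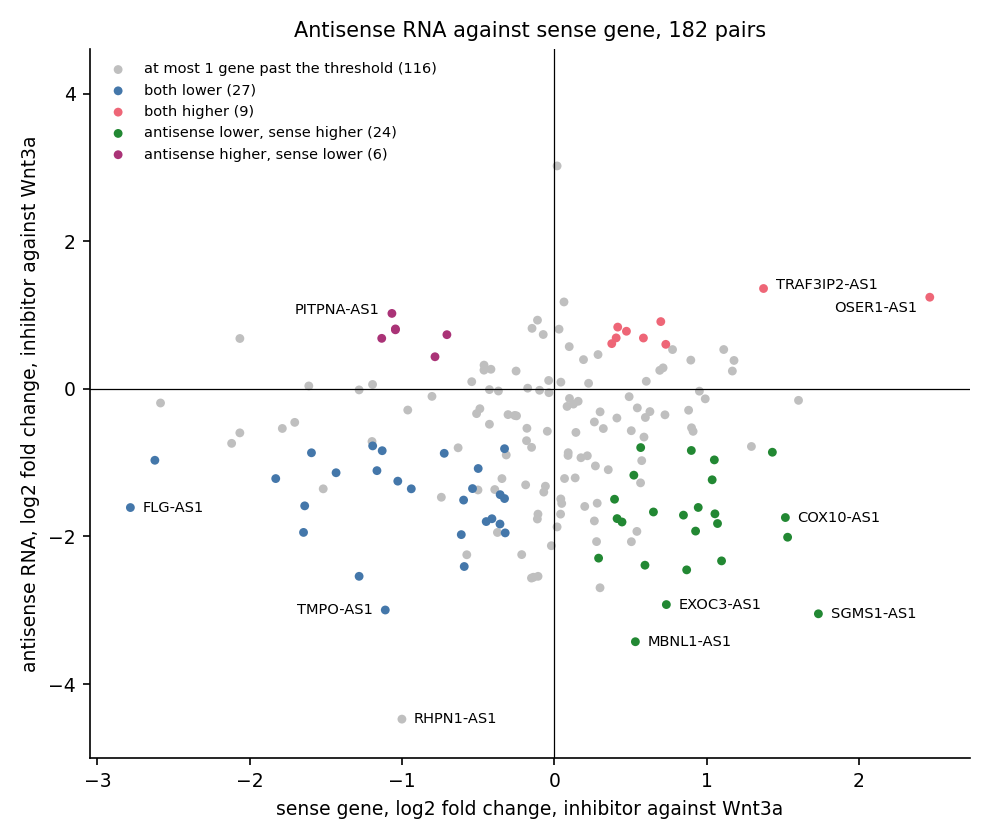
Log2 fold change of inhibitor against Wnt3a for the antisense RNA (y axis) and its sense gene (x axis) in 182 pairs, coloured by whether both genes passed the edgeR test and in which directions. Points with both genes called fall in all 4 quadrants, with 9 pairs both higher, 27 both lower and 30 opposite.

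Of the 30 opposite pairs, 24 had the antisense RNA lower and the sense gene higher, and in 14 of these 24 the starts were within 1 kb. Such starts were found in 76 of all 190 pairs, for 44 of the 94 antisense RNAs that fell, and in 15 of the 27 pairs that both fell. SGMS1-AS1 (ENSG00000226200.6, chr10:50624951-50641451, plus strand) starts 212 bases from the gene of the sphingomyelin synthase SGMS1. It was at 3.03, 1.86 and 2.88 CPM with vehicle, 2.11, 2.65 and 2.8 CPM with Wnt3a alone and 0.0835, 0.433 and 0.385 CPM with the inhibitor. The inhibitor libraries were the lowest 3 of the 9, and the fall was 3.05 on the log2 scale (SE 0.466, edgeR adjusted p = 0.000451). SGMS1 was at 13.6, 9.91 and 14.6 CPM with vehicle, 17.4, 16.1 and 23.7 CPM with Wnt3a alone and 60.6, 67 and 62.4 CPM with the inhibitor. Here the inhibitor libraries were the highest 3, and the rise was 1.73 (SE 0.178, edgeR adjusted p = 4.39e-05). Against vehicle, which shares the inhibitor libraries with this comparison, SGMS1-AS1 fell by 3.09 (edgeR adjusted p = 0.000419) and SGMS1 rose by 2.32 (edgeR adjusted p = 9.80e-06).

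COX10-AS1 (ENSG00000236088.9, chr17:13756478-14069495) and COX10, a farnesyltransferase needed to make the heme of cytochrome c oxidase, also parted. The antisense RNA was at 4.92, 5.77 and 4.61 CPM with vehicle, 6.56, 5.98 and 4.96 CPM with Wnt3a alone and 2.43, 1.22 and 1.6 CPM with the inhibitor, and it fell by 1.74 on the log2 scale (edgeR adjusted p = 0.000452). COX10 went from 12.3 ± 0.856 to 35.1 ± 3.65 CPM (SD, 3 libraries each), a rise of 1.52 (edgeR adjusted p = 1.27e-05). Neither gene's inhibitor libraries overlapped those of the other groups.

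ZBTB11-AS1 and SP2-AS1 accompany genes of zinc finger transcription factors. ZBTB11-AS1 was at 5.6, 5.6 and 5.51 CPM with vehicle, 3.83, 4.15 and 5.03 CPM with Wnt3a alone and 0.902, 0.767 and 0.691 CPM with the inhibitor and fell by 2.45 on the log2 scale (edgeR adjusted p = 1.89e-05), while ZBTB11 rose from 36 ± 4.6 to 65.7 ± 3.54 CPM, by 0.87 (edgeR adjusted p = 0.000653). SP2-AS1 was at 2.64, 2.91 and 2.82 CPM with vehicle, 3.12, 3.53 and 3.1 CPM with Wnt3a alone and 0.911, 0.426 and 0.607 CPM with the inhibitor and fell by 2.33 (edgeR adjusted p = 0.000137), while SP2 rose by 1.1 (edgeR adjusted p = 0.000319). The inhibitor libraries of both antisense RNAs stayed under 1 CPM. ZNF667-AS1, of the panel from the literature given further on, fell by 1.61 on the log2 scale (edgeR adjusted p = 0.000227), and the zinc finger gene ZNF667 rose by 0.95 (edgeR adjusted p = 8.21e-05). RNF139-AS1 fell by 1.83 on the log2 scale (edgeR adjusted p = 0.0074), and RNF139, a ubiquitin ligase of the endoplasmic reticulum, rose by 1.07 (edgeR adjusted p = 0.000153).

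In other pairs of this kind the antisense fall was large and the sense rise smaller. EXOC3-AS1 was at 1.6, 2.18 and 1.82 CPM with vehicle, 1.7, 2.23 and 1.82 CPM with Wnt3a alone and 0.114, 0.304 and 0.32 CPM with the inhibitor, a fall of 2.92 on the log2 scale (edgeR adjusted p = 0.000171). EXOC3, a subunit of the exocyst, rose by 0.74 (edgeR adjusted p = 0.000124), a call that limma-trend on TPM did not make (adjusted p = 0.0699). MBNL1-AS1, inside the gene of the splicing regulator MBNL1, was at 1.27, 1.09 and 1.3 CPM with vehicle, 2.55, 1.01 and 1.78 CPM with Wnt3a alone and 0.044, 0.245 and 0.183 CPM with the inhibitor. It had 14.9 expected counts in all 3 inhibitor libraries together against 224 with Wnt3a, and fell by 3.43 on the log2 scale (edgeR adjusted p = 0.000561). MBNL1 rose by 0.53 (edgeR adjusted p = 0.00589), which did not pass with library totals (edgeR adjusted p = 0.0544) or limma-trend on TPM (adjusted p = 0.399). ARHGAP5-AS1 was at 1.91, 1.77 and 2.07 CPM with vehicle, 3.52, 2.77 and 3.07 CPM with Wnt3a alone and 0.455, 0.517 and 0.799 CPM with the inhibitor and fell by 2.39 (edgeR adjusted p = 0.000104). ARHGAP5, a GTPase-activating protein gene, rose by 0.6 (edgeR adjusted p = 0.00206).

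SLC25A25-AS1, beside the gene of a mitochondrial ATP carrier, varied within every group, with 1.39, 3.6 and 1.23 CPM with vehicle, 2.69, 5.2 and 1.33 CPM with Wnt3a alone and 1.43, 0.368 and 0.516 CPM with the inhibitor. The groups overlapped. It passed as lower (log2 -2.01, edgeR adjusted p = 0.0282), but not when any of 3 libraries was left out: Wnt3a replicate 2 (edgeR adjusted p = 0.125), inhibitor replicate 2 (0.0974) or inhibitor replicate 3 (0.0938), with the edgeR adjusted p in parentheses. SLC25A25 rose by 1.53 (edgeR adjusted p = 0.00014).

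**Figure D4:**
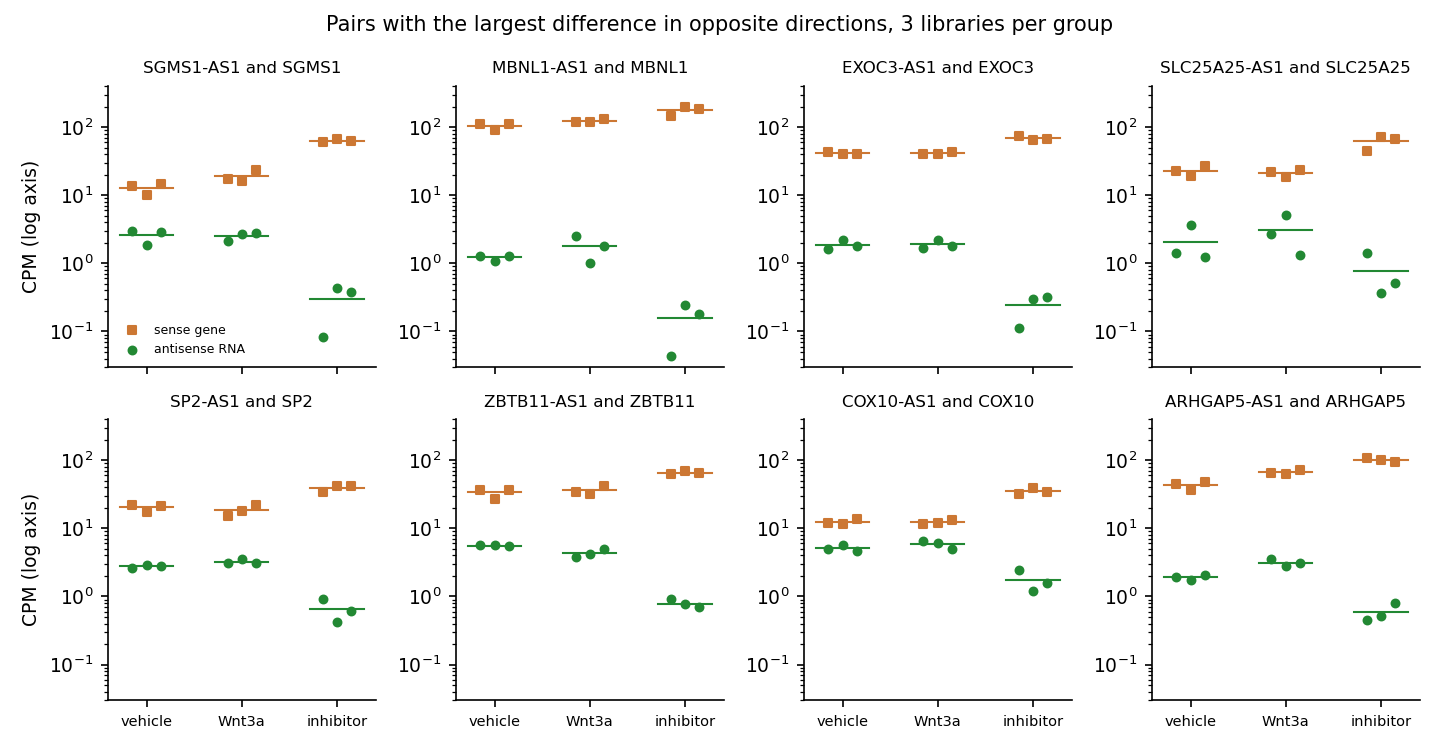
CPM on a log axis for the antisense RNA and the sense gene of the 8 opposite pairs with the largest difference, with 1 point per library, 3 libraries per group, and a line at the group mean. In each panel the antisense group mean is lower with the inhibitor than with Wnt3a and the sense group mean is higher, and SLC25A25-AS1 is the pair whose antisense libraries overlap between groups.

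The promoter printed above for MAFG belongs to this class. MAFG-AS1 (now also named MILIP) was at 10.7, 12.3 and 11.3 CPM with vehicle, 8.44, 10.3 and 9.81 CPM with Wnt3a alone and 1.63, 2.71 and 3.8 CPM with the inhibitor, lowest in the inhibitor libraries, and fell by 1.8 on the log2 scale (edgeR adjusted p = 0.000323). MAFG was at 27.7, 24.6 and 28.9 CPM with Wnt3a alone and 41.4, 29.6 and 39.5 CPM with the inhibitor and rose by 0.45 (edgeR adjusted p = 0.0199). That rise was not called without Wnt3a replicate 2 (edgeR adjusted p = 0.0772), inhibitor replicate 1 (0.0511) or inhibitor replicate 3 (0.0685), with library totals (edgeR adjusted p = 0.245) or with limma-trend on TPM (adjusted p = 0.765). WAC-AS1 and WAC, an adaptor for histone H2B ubiquitination, also parted. WAC-AS1 was at 28.1, 24.4 and 26.1 CPM with vehicle, 23.9, 27.1 and 26.6 CPM with Wnt3a alone and 6.82, 8.1 and 9.04 CPM with the inhibitor and fell by 1.69 on the log2 scale (edgeR adjusted p = 9.48e-06), and WAC rose by 1.06 (edgeR adjusted p = 6.19e-05). Besides the 12 pairs described so far, this class held GABPB1, PAX8, RUSC1, TMEM147, ID2, ST3GAL4, GMDS, SDCBP2, EMC3, ZNF674, MAN1B1 and TFAP2A with their antisense RNAs. ID2, an inhibitor of helix-loop-helix factors and a known target of TGF-β family signalling, rose by 0.57 (edgeR adjusted p = 0.00635), though not with limma-trend on TPM (adjusted p = 0.163). ID2-AS1 fell by 0.8 on the log2 scale (edgeR adjusted p = 0.0173), a call lost without Wnt3a replicate 3 (edgeR adjusted p = 0.0555) or inhibitor replicate 3 (0.0667). MAFG-AS1, WAC-AS1 and ID2-AS1 were chosen after their values were seen.

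The reverse pattern, antisense higher and sense lower, was seen in 6 pairs, at PITPNA, ZSCAN16, NR2F1, TRIM52, AGAP2 and LRRC75A. PITPNA-AS1 (ENSG00000236618.2, chr17:1516931-1518096, plus strand) was at 3.48, 4.06 and 3.64 CPM with vehicle, 2.67, 3.31 and 3.21 CPM with Wnt3a alone and 6.91, 5.48 and 6.27 CPM with the inhibitor. Its inhibitor libraries were the highest 3, and it rose by 1.02 (SE 0.188, edgeR adjusted p = 0.00138). PITPNA, a phosphatidylinositol transfer protein gene, was at 103, 95.6 and 106 CPM with vehicle, 105, 100.2 and 105 CPM with Wnt3a alone and 44.9, 53.7 and 49.5 CPM with the inhibitor and fell by 1.07 on the log2 scale (SE 0.092, edgeR adjusted p = 1.72e-05). Of the exon bases of PITPNA-AS1, 69.9% lie inside exons of PITPNA on the other strand.

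The transcription factor genes NR2F1 and ZSCAN16 fell while their antisense RNAs rose. NR2F1-AS1 rose by 0.73 (edgeR adjusted p = 0.00271) and NR2F1, an orphan nuclear receptor, fell by 0.7 on the log2 scale (edgeR adjusted p = 0.00124). ZSCAN16-AS1 rose by 0.81 (edgeR adjusted p = 0.00672), which limma-trend on TPM did not call (adjusted p = 0.0886), and ZSCAN16 fell by 1.04 on the log2 scale (edgeR adjusted p = 0.00469). The calls at TRIM52 and AGAP2 were less firm. TRIM52-AS1 passed with a log2 difference of 0.68 (edgeR adjusted p = 0.00746) but not with library totals (edgeR adjusted p = 0.0641) or limma-trend on TPM (adjusted p = 0.183), and TRIM52 passed with a log2 difference of -1.13 (edgeR adjusted p = 0.0125) but not without Wnt3a replicate 2 (edgeR adjusted p = 0.0558), inhibitor replicate 2 (0.0518) or inhibitor replicate 3 (0.0509). AGAP2-AS1 passed with a log2 difference of 0.43 (edgeR adjusted p = 0.0262), but not with library totals (edgeR adjusted p = 0.279), limma-trend on TPM (adjusted p = 0.662), or without Wnt3a replicate 1 (edgeR adjusted p = 0.0985), Wnt3a replicate 2 (0.0575), inhibitor replicate 2 (0.0828) or inhibitor replicate 3 (0.0907). AGAP2, whose product activates GTPases of the ARF family, passed with a log2 difference of -0.78 (edgeR adjusted p = 0.0244), but not without Wnt3a replicate 2 (edgeR adjusted p = 0.0642), Wnt3a replicate 3 (0.0811) or inhibitor replicate 1 (0.0589). TRIM52-AS1 was chosen after its values were seen.

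Both RNAs fell in 27 pairs, 15 of them with starts within 1 kb, as had 44 of all 94 antisense RNAs that fell. At NUP50, whose promoter is printed above, NUP50-AS1 was at 6.27, 6.06 and 5.83 CPM with vehicle, 6.97, 6.14 and 5.67 CPM with Wnt3a alone and 1.78, 1.58 and 1.41 CPM with the inhibitor. The inhibitor libraries were the lowest 3, and the fall was 1.98 on the log2 scale (edgeR adjusted p = 2.77e-05). NUP50 fell by 0.61 (edgeR adjusted p = 0.00081). FLVCR1-AS1 fell by 1.59 (edgeR adjusted p = 9.03e-05) and FLVCR1, a heme and choline transporter gene, by 1.64 (edgeR adjusted p = 4.33e-05). HAND2-AS1 fell by 0.84 (edgeR adjusted p = 0.00211) and HAND2, a helix-loop-helix factor of heart and limb development, by 1.13 (edgeR adjusted p = 4.11e-05). MCM3AP-AS1 fell by 1.43 (edgeR adjusted p = 0.00449). MCM3AP, a scaffold of mRNA export, fell by 0.36 (edgeR adjusted p = 0.015), but not without Wnt3a replicate 2 (edgeR adjusted p = 0.0568) or with an offset for effective length (edgeR adjusted p = 0.0697). Besides TMPO and TBX5, the other genes of this class were OTUD6B, PSMA3, CTBP1, RNASEH1, LIMD1, ARRDC1, SLC16A1, ENTPD1, PSMG3, ASB16, ZNF528, ZBED5, FLG, URB1, CPB2, THAP7, DLG5, BCDIN3D, DNAJC9 and PAXIP1, the last with both of its antisense RNAs. NUP50-AS1, FLVCR1-AS1 and HAND2-AS1 were chosen after their values were seen.

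Both RNAs rose in 9 pairs. OSER1-AS1 (ENSG00000223891.5, chr20:44210960-44226027) was at 2.28, 2.64 and 2.15 CPM with vehicle, 2.58, 2.14 and 2.05 CPM with Wnt3a alone and 5.39, 5.32 and 5.31 CPM with the inhibitor. Its inhibitor libraries were close together and above all others, and it rose by 1.24 (SE 0.198, edgeR adjusted p = 0.000591). OSER1 was at 27.9, 24 and 28.2 CPM with vehicle, 29.4, 22.9 and 27.7 CPM with Wnt3a alone and 161, 149 and 133 CPM with the inhibitor. It rose by 2.47 (SE 0.128, edgeR adjusted p = 2.02e-06), the largest rise among the sense partners tested. TRAF3IP2-AS1 (ENSG00000231889.7, chr6:111483511-111598302) was at 3.01, 3.51 and 3.74 CPM with vehicle, 3.78, 3.12 and 2.84 CPM with Wnt3a alone and 10.1, 7.21 and 7.67 CPM with the inhibitor and rose by 1.36 (edgeR adjusted p = 0.000445). TRAF3IP2, the adaptor of interleukin-17 receptors, rose by 1.37 (edgeR adjusted p = 0.00102).

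The other 7 pairs were AZIN1, RNF185, ARAP1, NNT, TMEM161B, KTN1 and TPT1 with their antisense RNAs, and in each at least 1 of the 2 calls depended on the scaling. With library totals 2 pairs were called higher together, and 5 were without Wnt3a replicate 3 or without inhibitor replicate 3. AZIN1-AS1, named for the antizyme inhibitor, passed with a log2 difference of 0.91 (edgeR adjusted p = 0.038), but not with library totals (edgeR adjusted p = 0.122), limma-trend on TPM (adjusted p = 0.0525) or without Wnt3a replicate 1 (edgeR adjusted p = 0.106), Wnt3a replicate 3 (0.102), inhibitor replicate 1 (0.0633) or inhibitor replicate 2 (0.114). RNF185-AS1, named for a ubiquitin ligase, passed with a log2 difference of 0.84 (edgeR adjusted p = 0.0299), but not with library totals (edgeR adjusted p = 0.119), limma-trend on TPM (adjusted p = 0.137) or without Wnt3a replicate 2 (edgeR adjusted p = 0.0606), Wnt3a replicate 3 (0.0908), inhibitor replicate 1 (0.0593) or inhibitor replicate 3 (0.0992). NNT-AS1, named for the mitochondrial transhydrogenase, passed with a log2 difference of 0.61 (edgeR adjusted p = 0.0196), but not with library totals (edgeR adjusted p = 0.101), limma-trend on TPM (adjusted p = 0.584) or without Wnt3a replicate 1 (edgeR adjusted p = 0.075), Wnt3a replicate 2 (0.0678), inhibitor replicate 2 (0.0596) or inhibitor replicate 3 (0.0667). NNT-AS1 was also not called with an offset for effective length (edgeR adjusted p = 0.0748). TMEM161B-AS1 passed with a log2 difference of 0.69 (edgeR adjusted p = 0.0165), but not with library totals (edgeR adjusted p = 0.107), limma-trend on TPM (adjusted p = 0.107) or without Wnt3a replicate 3 (edgeR adjusted p = 0.0561), inhibitor replicate 2 (0.0592) or inhibitor replicate 3 (0.0507). With all genes of at least 1 count kept, AZIN1-AS1, RNF185-AS1 and TMEM161B-AS1 were not called (edgeR adjusted p = 0.104, 0.0897 and 0.0758), and in a fit of only the 2 groups compared AZIN1-AS1 and RNF185-AS1 were not (edgeR adjusted p = 0.0549, 0.0614). Their partners RNF185, NNT and TMEM161B were not called with library totals (edgeR adjusted p = 0.121, 0.247 and 0.328) or limma-trend on TPM (adjusted p = 0.651, 0.732 and 0.118).

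TPT1-AS1, beside the gene of the translationally controlled tumour protein, passed with a log2 difference of 0.6 (edgeR adjusted p = 0.020), but not with library totals (edgeR adjusted p = 0.162), limma-trend on TPM (adjusted p = 0.0897) or without Wnt3a replicate 1 (edgeR adjusted p = 0.0733), Wnt3a replicate 3 (0.0595) or inhibitor replicate 1 (0.0521). TPT1 passed with a log2 difference of 0.73 (edgeR adjusted p = 0.00244), but not with limma-trend on TPM (adjusted p = 0.0794). KTN1-AS1 passed with a log2 difference of 0.69 (edgeR adjusted p = 0.0097), but not with library totals (edgeR adjusted p = 0.0684), an offset for effective length (edgeR adjusted p = 0.0569), all genes with at least 1 count kept (edgeR adjusted p = 0.0502) or limma-trend on TPM, which gave 0.13 (adjusted p = 0.513). ARAP1-AS1 passed with a log2 difference of 0.78 (edgeR adjusted p = 0.00471). ARAP1, a GTPase-activating protein, passed with a log2 difference of 0.47 (edgeR adjusted p = 0.0132), but not with library totals (edgeR adjusted p = 0.179), limma-trend on TPM (adjusted p = 0.312) or without inhibitor replicate 3 (edgeR adjusted p = 0.0553). TPT1-AS1, KTN1-AS1 and ARAP1-AS1 were chosen after their values were seen.

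The largest antisense rise that passed the test was that of EPB41L4A-AS1 (ENSG00000224032.6, chr5:112160526-112164276), which carries a small nucleolar RNA in an intron. It was at 22.4, 23.5 and 22.7 CPM with vehicle, 19.8, 20.5 and 19.6 CPM with Wnt3a alone and 82.6, 66.1 and 63.3 CPM with the inhibitor. The inhibitor libraries stood well above the other 6, with a rise of 1.82 (SE 0.114, edgeR adjusted p = 4.22e-06), and EPB41L4A did not pass the filter on low counts. Another host of small nucleolar RNAs, LRRC75A-AS1 (also SNHG29), was at 552, 688 and 588 CPM with vehicle, 541, 531 and 508 CPM with Wnt3a alone and 1144, 782 and 823 CPM with the inhibitor. It rose by 0.8 (edgeR adjusted p = 0.00129), with inhibitor replicate 1 the highest of the 9 libraries. LRRC75A reached at most 1.12 CPM in any library. It passed as lower (log2 -1.04, edgeR adjusted p = 0.0401), but not with DESeq2 (adjusted p = 0.0854), with the replicate number as a block (edgeR adjusted p = 0.0585) or without vehicle replicate 1 (edgeR adjusted p = 0.0604), vehicle replicate 2 (0.0518), vehicle replicate 3 (0.0618), Wnt3a replicate 2 (0.179), inhibitor replicate 1 (0.0816), inhibitor replicate 2 (0.0739) or inhibitor replicate 3 (0.0928). It also missed with all genes of at least 1 count kept (edgeR adjusted p = 0.135), limma-voom (adjusted p = 0.0551), an offset for effective length (edgeR adjusted p = 0.0683) and only the 2 groups compared (edgeR adjusted p = 0.065). MAPKAPK5-AS1, of the panel from the literature given further on, rose by 0.82 (edgeR adjusted p = 0.00165) though not with limma-trend on TPM (adjusted p = 0.138), and the protein kinase gene MAPKAPK5 differed by -0.15 (edgeR adjusted p = 0.231).

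By mean expected count, which is not scaled to length, the top 10 antisense RNAs were LRRC75A-AS1 (24448), OIP5-AS1 (5550), FGD5-AS1 (3961), TBX5-AS1 (3682), FEZF1-AS1 (3048), SVIL-AS1 (2007), AGAP2-AS1 (1869), THAP9-AS1 (1458), EPB41L4A-AS1 (1283) and TP73-AS1 (1131). OIP5-AS1, also known as cyrano and studied as a binder of microRNAs and of the HuR protein, was at 171, 160.4 and 170.2 CPM with vehicle, 166, 175 and 178 CPM with Wnt3a alone and 97.9, 87.8 and 93.2 CPM with the inhibitor. The inhibitor libraries were the lowest 3 and close together, with a fall of 0.9 on the log2 scale (SE 0.0812, edgeR adjusted p = 2.25e-05). OIP5, a centromere protein gene, differed by -0.32 and did not pass (edgeR adjusted p = 0.107). FGD5-AS1 was at 125, 109 and 129 CPM with vehicle, 121, 127 and 133 CPM with Wnt3a alone and 54.1, 62.4 and 60.3 CPM with the inhibitor and fell by 1.11 (edgeR adjusted p = 1.83e-05), and FGD5 did not pass the filter on low counts. TBX5-AS1 was at 109.6, 95.5 and 116 CPM with vehicle, 130.4, 134 and 138 CPM with Wnt3a alone and 42.6, 35.5 and 40.6 CPM with the inhibitor. It fell by 1.76 (edgeR adjusted p = 3.43e-06) and TBX5, a T-box factor of heart and forelimb, by 0.41 (edgeR adjusted p = 0.00559).

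Of the other abundant RNAs, TP73-AS1 fell by 1.22 on the log2 scale (edgeR adjusted p = 0.000279), with the p53 family gene TP73 at a log2 difference of -0.34 (edgeR adjusted p = 0.384). SVIL-AS1 had a log2 difference of -0.02 (edgeR adjusted p = 0.879). THAP9-AS1 had a log2 difference of -0.16 and did not pass (edgeR adjusted p = 0.356), while THAP9, a domesticated transposase gene, was at 7.62, 5.74 and 6.75 CPM with vehicle, 6.6, 6.35 and 8.71 CPM with Wnt3a alone and 19.2, 25.1 and 21.7 CPM with the inhibitor and rose by 1.6 (edgeR adjusted p = 6.82e-05). FEZF1-AS1 had a log2 difference of -0.31 (edgeR adjusted p = 0.223). FEZF1, a transcription factor gene, passed with a log2 difference of 0.63 (edgeR adjusted p = 0.040), but limma-trend on TPM gave -0.23 (adjusted p = 0.422), and the call was lost without vehicle replicate 1 (edgeR adjusted p = 0.0585), vehicle replicate 3 (0.0549), Wnt3a replicate 1 (0.125), Wnt3a replicate 2 (0.081), Wnt3a replicate 3 (0.0545), inhibitor replicate 2 (0.126) or inhibitor replicate 3 (0.155). It was also lost with library totals (edgeR adjusted p = 0.173), an offset for effective length (edgeR adjusted p = 0.528), limma-voom (adjusted p = 0.0614) and only the 2 groups compared (edgeR adjusted p = 0.0786).

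A panel of 18 antisense RNAs known from the literature had 11 members in the set. Besides those already given, ZEB1-AS1 was at 2.16, 2.02 and 1.97 CPM with vehicle, 2.38, 2.39 and 2.0 CPM with Wnt3a alone and 1.95, 1.16 and 0.863 CPM with the inhibitor. The inhibitor libraries lay below the others, with a difference of -0.78 that did not pass (edgeR adjusted p = 0.0561). ZEB1, a repressor known for its part in epithelial to mesenchymal transition, was at 15.3, 14.6 and 16.7 CPM with vehicle, 23.7, 18.9 and 20.7 CPM with Wnt3a alone and 56.1, 53.7 and 45.6 CPM with the inhibitor and rose by 1.29 (edgeR adjusted p = 2.99e-05). CDKN2B-AS1, also known as ANRIL, had a log2 difference of -0.13 (edgeR adjusted p = 0.731), and HOXB-AS1 at a log2 difference of -0.36 (edgeR adjusted p = 0.418). PCBP1-AS1 was at 6.87, 6.43 and 5.76 CPM with vehicle, 10, 9.47 and 5.37 CPM with Wnt3a alone and 31.7, 9.22 and 6.55 CPM with the inhibitor. Inhibitor replicate 1 was far above the other inhibitor libraries, and the difference of 0.93 did not pass (edgeR adjusted p = 0.146). TTN-AS1 had a log2 difference of -0.54 (edgeR adjusted p = 0.173), while TTN, the titin gene, passed with a log2 difference of -1.79 (edgeR adjusted p = 0.00926) but not with limma-trend on TPM (adjusted p = 0.425) or an offset for effective length (edgeR adjusted p = 0.206).

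The antisense RNAs without a partner row included those of the HOX clusters, which are named for a cluster and not for 1 gene. HOXC-AS2 (chr12:53993810-53996785) was at 4.13, 4.29 and 3.39 CPM with vehicle, 3.66, 3.64 and 3.89 CPM with Wnt3a alone and 0.994, 1.47 and 1.87 CPM with the inhibitor, and the inhibitor libraries were the lowest 3. It fell by 1.37 on the log2 scale (edgeR adjusted p = 0.00146). HOXC-AS3 (chr12:53981509-53985519), in the same cluster, was at 1.52, 1.77 and 1.56 CPM with vehicle, 2.03, 2.39 and 1.68 CPM with Wnt3a alone and 0.683, 0.669 and 0.511 CPM with the inhibitor and fell by 1.71 (edgeR adjusted p = 0.000672). HOXD-AS2 had a log2 difference of -0.12 (edgeR adjusted p = 0.789). RPARP-AS1 (now C10orf95-AS1) fell by 1.4 (edgeR adjusted p = 0.00271). JHDM1D-AS1, now named KDM7A-DT after the histone demethylase gene beside it, had a log2 difference of -1.02 and did not pass (edgeR adjusted p = 0.0664). The antisense RNAs of this paragraph were chosen after their values were seen.

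The antisense count over the sense count within a library, as a log2 ratio with 1 added to each scaled count, was lower with the inhibitor at the median. The median over 182 pairs was -2.89, -2.69 and -2.98 in the vehicle libraries, -2.78, -2.71 and -3.03 in the Wnt3a libraries, and -3.53, -3.95 and -3.73 in the inhibitor libraries. All 3 inhibitor libraries lay below the other 6, and the groups of vehicle and Wnt3a overlapped. The difference between group means was -0.90 for inhibitor against Wnt3a, -0.89 against vehicle and 0.01 for Wnt3a against vehicle. For 3 libraries against 3 an exact permutation test cannot give a p below 0.1, so no test is given. Pair by pair, the inhibitor ratio lay wholly below the Wnt3a libraries in 89 pairs, wholly above in 25 and overlapped in 68. For Wnt3a against vehicle these counts were 18, 9 and 155. They are not given over other gene pairs, so no background share stands beside them.

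**Figure D5:**
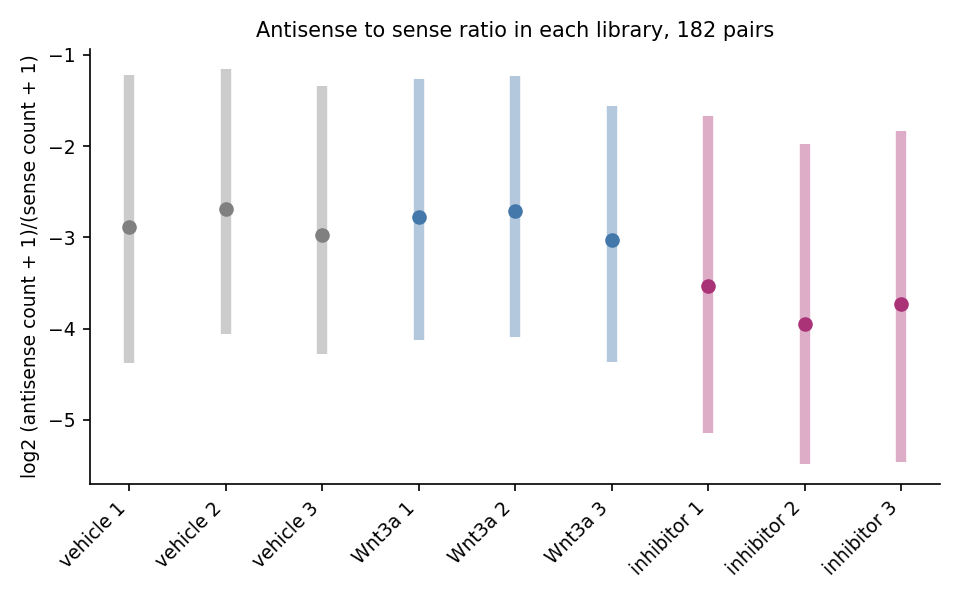
Log2 ratio of the antisense to the sense count (y axis, 1 added to each scaled count) in each of the 9 libraries (x axis), over 182 pairs, with the median and the quartiles of the pairs. The inhibitor medians of -3.53, -3.95 and -3.73 lie below the other 6, which run from -3.03 to -2.69.

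Per length, most antisense RNAs were well below their partners. In TPM, the median antisense level was 27.9% of the sense level with vehicle, 26.9% with Wnt3a and 12.9% with the inhibitor. The antisense RNA was below the sense gene in all 9 libraries in 127 pairs, above it in all 9 in 26, and on both sides in 29. With vehicle it was under 10% of the sense level in 53 pairs.

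Overlap of exons matters for what these values can show, since the strand setting of the counting is not given in the sources used here. Exon bases were shared in 132 of the 190 pairs and in none of the other 58, the median share of the antisense exons was 3.93%, 12 pairs shared at least 50% and 4 at least 90%. Without strand, reads from shared exons cannot be told apart. The 4 antisense RNAs that lie nearly wholly in sense exons were PAPPA-AS1 (100%), CHMP1B-AS1 (100%), RNF185-AS1 (100%) and ARAP1-AS1 (99.2%). PAPPA-AS1 had a log2 difference of 0.01 and CHMP1B-AS1 a log2 difference of -0.03 with the inhibitor, and neither passed (edgeR adjusted p = 0.985 and 0.942). The others, RNF185-AS1 and ARAP1-AS1, were called higher together with their partners. RNF185-AS1 differed by 0.84 with RNF185 at 0.42, and ARAP1-AS1 by 0.78 with ARAP1 at 0.47. The part of reads from shared exons in these calls was not tested. A measure of strand came from 90 noncoding genes of at least 300 bases with at least 90% of their exon bases in exons of an opposite-strand coding gene of at least 50 TPM. Averaged over the 9 libraries, their median level was 1.01% of the coding gene's TPM, 45 were under 1%, 18 were at 0, 29 were above 10% and the highest was at 86.0%. PAPPA-AS1 and CHMP1B-AS1 were chosen after their values were seen.

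ZNFX1-AS1 was listed under 2 gene IDs whose counts traded places. The first had expected counts of 107, 237 and 264 with vehicle, 64.8, 419 and 218 with Wnt3a, then 1.94, 0 and 133 once SB-505124 was added. The second had 17.2, 0 and 15.5, then 0, 0 and 110, and then 125, 286 and 220. Summed, the name stood at 5.46 ± 1.85 CPM with vehicle, 6.15 ± 4.02 with Wnt3a and 8.26 ± 3.24 with the inhibitor (SD, 3 libraries each), and the groups overlapped. The call of the second ID as higher against vehicle (edgeR adjusted p = 0.0285) is therefore uncertain, and it was lost without vehicle replicate 1 (edgeR adjusted p = 0.063), vehicle replicate 2 (0.0736), vehicle replicate 3 (0.0699), inhibitor replicate 2 (0.0657) or inhibitor replicate 3 (0.0557). NUTM2A-AS1 and NUTM2B-AS1 belong to a duplicated gene family and DHRS4, the partner of DHRS4-AS1, has close copies, and how the counting divided reads between such copies was not tested.

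Genes that break down or bind antisense RNA were counted as 2 lists. The first list held the nuclear RNA exosome, its adaptors and other RNA decay genes, with old and new symbols of renamed genes. Among the other decay genes were XRN1, XRN2 and DIS3L, so the counts are not those of the nuclear exosome alone. Of the 28 symbols, 25 were tested. None passed with Wnt3a, and with the inhibitor against Wnt3a 13 rose (24.5% of all genes did) and 7 fell (25.9% of all genes did). The median was 0.29 against -0.06 for all genes. The share that rose was above that of all genes, and the share that fell was near it. Against vehicle 13 rose (25% of all genes did) and 8 fell (24.8% of all genes did). Among those that fell were the exosome cap subunit EXOSC3, from 24.5 ± 1.02 to 9.99 ± 1.64 CPM (log2 -1.3, edgeR adjusted p = 3.87e-05), and PABPN1, the nuclear poly(A)-binding protein that takes part in nuclear decay of polyadenylated RNA, from 126 ± 16.7 to 45 ± 2.27 CPM (log2 -1.49, edgeR adjusted p = 1.28e-05). ZFC3H1, which links polyadenylated RNA to the exosome, fell by 1.72 on the log2 scale (edgeR adjusted p = 0.00545), with 40.4 CPM in inhibitor replicate 1 and 10.7 and 13.9 CPM in the other inhibitor libraries. Among those that rose were the nuclease EXOSC10 (0.65, edgeR adjusted p = 0.00029), the adaptor RBM7 (1.34, edgeR adjusted p = 0.000228) and the noncanonical poly(A) polymerase PAPD5 (1.7, edgeR adjusted p = 0.000187).

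Of 20 genes that process or sense double-stranded RNA, none passed with Wnt3a, 8 rose (24.5% of all genes did) and 4 fell (25.9% of all genes did) with the inhibitor against Wnt3a, with a median of 0.11, and 7 rose and 4 fell against vehicle (25% and 24.8% of all genes did). The share that rose was above that of all genes, and the share that fell was no higher than it. DGCR8, the RNA-binding partner of DROSHA in microRNA processing, went from 57.1 ± 6.34 to 6.57 ± 1.08 CPM and fell by 3.12 on the log2 scale (edgeR adjusted p = 2.02e-06). DROSHA fell by 0.55 (edgeR adjusted p = 0.000431), the helicase DHX9 by 0.84 (edgeR adjusted p = 5.96e-05) and the editing enzyme ADAR by 0.36 (edgeR adjusted p = 0.00585). The sensors TLR3 and IFIH1 rose by 1.98 (edgeR adjusted p = 3.53e-05) and 1.72 (edgeR adjusted p = 0.000723). The genes of both lists were named after their values were seen, and the part of either list in the antisense differences was not tested.

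RefSeq windows of 250 bases before to 50 after the start were found for 148 antisense RNAs and 150 sense partners, and 128 pairs had both. The 2 windows overlapped in 43 pairs, 36 of them among the 57 pairs with starts within 1 kb that had both. The median number of CpG dinucleotides was 26 in antisense windows, 27 in sense windows and 14 over all 35116 windows. The ETS motif CCGGAAG was found on either strand in 21.6% of antisense windows, 18.7% of sense windows and 10.3% of all windows, and the palindromic NRF1 motif in 4.05%, 1.33% and 1.24%. The CCAAT box was found in 36.5%, 31.3% and 34.6%, and the forkhead motif GTAAACA in 3.38%, 6% and 3.42%. The SMAD palindrome GTCTAGAC was in none of the antisense or sense windows and in 0.202% of all windows, and the TCF/LEF motif CTTTGAT in 0%, 0.667% and 2.62%. A run of 3 GGAA units, the kind of site EWSR1-FLI1 binds, was in none of the antisense or sense windows and in 0.0854% of all windows. In the printed sequences the NRF1 motif is found at MAFG and NUP50 and the ETS motif at NUP50. These are matches of letters, and binding was not measured.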

How the data were processed

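Per the labels' protocols, a stranded kit was used for 9 libraries of polyadenylated RNA from TC32 cells. The submitters' processing notes name RSEM 1.2.31, STAR 2.5.2a, Trimmomatic 0.36 and CASAVA 1.8.2, and the build hg38. Neither the annotation release nor the strand setting of the counting is known here. The deposited gene tables hold, per the file headers, the expected count, in which RSEM divides a read among the genes it could come from, along with TPM, FPKM, length and effective length. FPKM and length were not used.

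Groups came from the labels. The 45 second rows of pseudoautosomal genes were added to the first, which left 58233 IDs, and gene types and coordinates came from GENCODE release 29, where 181 of the 196 antisense IDs had the same version. Expected counts were rounded, filtered with filterByExpr and scaled with TMM, and 1 quasi-likelihood model over all 9 libraries was fitted to 17880 genes with edgeR 4.0.16 in R 4.3.3 (common biological coefficient of variation 21.5%, 6 residual degrees of freedom). Tests were 2-sided with Benjamini-Hochberg adjustment over all genes tested, at 0.05. A log2 fold change is inhibitor against Wnt3a unless another comparison is named. In simulated data for that comparison with 17492 genes, 58 of 100 genes changed by 1 and 96 of 100 changed by 2 on the log2 scale were recovered, with 5 false calls. No other genes were changed there, the changes went in both directions, and all genes had the same dispersion. In the data 50.4% of genes were called, so recovery and false calls may differ from the simulated ones.

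Alternatives were other size factors and filters, DESeq2 1.42.0, limma-voom and limma-trend on log2(TPM + 1) with limma 3.58.1, unrounded counts, an effective length offset, only the groups compared, a replicate block, stricter thresholds, set thresholds of 20 and 80, another pseudocount in the ratio, and leaving out each library. The antisense set, the gene lists and the rules were chosen with earlier results of these data known. Antisense RNAs were named by a rule: the 8 largest rises and falls of each inhibitor comparison without overlap of libraries, the 10 highest mean counts, the 8 opposite pairs with the largest difference, the 3 names on either side of the threshold and a panel of 18. It gave 45 names, of which not all are described, and 21 were chosen after their values were seen. Lists of names without values give all members of a class of pairs. Reads carried no molecular identifiers, so counts can hold PCR copies. Some genes are not reported here.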

Additional observations from a re-analysis of the deposited data

How the results depend on the processing

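No antisense RNA was called with Wnt3a under any of the alternatives run, and the antisense falls with the inhibitor stayed within 1.5 times their number in all of them, leaving out each library included. Of 7257 values for single genes under alternatives, 6922 kept their direction and their side of the threshold, 239 were no longer called, 95 were newly called and 1, FEZF1 with limma-trend on TPM, changed sign, to -0.23 (adjusted p = 0.422). The cause of the differences below was not tested except that a stricter threshold makes fewer calls and a higher count threshold leaves fewer genes. Counts that moved were these. With library totals, 4 sense partners were called with Wnt3a (4 higher), against Wnt3a alone 10 antisense RNAs rose with the inhibitor, 2 pairs rose and 44 fell together, and against vehicle these were 7, 2 and 42. With limma-trend on TPM, 9 antisense RNAs and 34 partners rose against Wnt3a with 3 pairs both higher, and 9, 37 and 3 against vehicle. At an adjusted p of 0.01 there were 11 antisense rises, 30 sense falls, 3 pairs both higher, 16 both lower and 18 opposite against Wnt3a, and 9 antisense rises, 27 sense falls and 16 opposite pairs against vehicle. Keeping all genes with at least 1 count gave 4 partners called with Wnt3a and 5 pairs both higher against Wnt3a. Partners called with Wnt3a were also 4 with a filter of 1 CPM in 3 libraries, 5 with DESeq2 (4 higher, 1 lower) and 2, both higher, with a count threshold of 20, and a threshold of 80 left 34 and 36 sense rises.

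Leaving out each library gave 83 to 105 antisense falls and 14 to 19 rises against Wnt3a (97 to 121 calls), and 79 to 97 and 10 to 14 against vehicle (89 to 111 calls). Sense falls ran from 32 to 47 and rises from 49 to 62 against Wnt3a (81 to 109 calls), from 35 to 50 and 48 to 61 against vehicle (87 to 111 calls), and 1 to 4 partners were called with Wnt3a, all higher. Pairs both higher ran from 5 to 9, both lower from 18 to 29 and opposite from 21 to 39 against Wnt3a, and from 5 to 6, 19 to 26 and 20 to 33 against vehicle. The difference in the median log2 ratio ran from -1.0 to -0.79 against Wnt3a, from -0.99 to -0.78 against vehicle and from -0.05 to 0.11 for Wnt3a against vehicle.

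Libraries of different groups with the same replicate number did not vary together in every pair, with correlations of their deviations from -0.18 to 0.42. With different numbers the correlations ran from -0.45 to 0.31. Whether libraries of the same number were handled together was not tested. With the replicate block 19 antisense RNAs rose and 95 fell against Wnt3a, with 58 and 52 partners and 9, 30 and 31 pairs both higher, both lower and opposite, and against vehicle 14 and 88, 57 and 49, and 6, 25 and 25. With the block Wnt3a against vehicle gave 0 antisense calls and 1 sense call. At this depth 1 CPM stood for 26.4 to 44.8 counts per library.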
